A study of Mus musculus with 4 samples.

Results

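The solute carriers are membrane proteins that move nutrients, metabolites, ions, vitamins and metals across the plasma membrane and the membranes of organelles, and their gene symbols begin with Slc and a family number. They work as facilitators, exchangers or carriers driven by an ion gradient, and some need a partner chain to reach the membrane. In macrophages they supply amino acids and sugars for activation, and those of the endosome and lysosome return the products of digestion to the cytosol. N6-methyladenosine (m6A) is a methyl mark within messenger RNA that is written mainly by the METTL3 complex, is found most often near stop codons and in 3' UTRs, and affects how long a transcript lasts and how well it is translated. This account concerns the m6A peaks and transcript levels of Slc genes in mouse macrophages with and without deletion of Mettl3.

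The members were chosen by name alone, as every gene of the deposited peak tables whose symbol starts with Slc and a number, except Slc7a11, Slc40a1 and Slc11a1. They are 178 of the 13067 genes named in the tables and come from 46 families. Of these, 4 are not carrier genes although their symbols match, namely the pseudogenes Slc39a1-ps and Slc2a4rg-ps, the opposite-strand gene Slc7a6os and the adaptor protein gene Slc4a1ap. The cells were macrophages differentiated from bone marrow by 7 days of culture with macrophage colony-stimulating factor (M-CSF). KO cells were Mettl3fl/fl,LyzM-cre, that is, both Mettl3 alleles were floxed and Cre recombinase was driven by the lysozyme 2 (LysM) promoter, which is active in myeloid cells. WT cells were Mettl3fl/fl and so carried the same floxed alleles without Cre. The strain, age, sex and number of mice are not given in the sources used here. In m6A-seq, poly(A) RNA is fragmented and precipitated with an antibody against m6A, which gives the IP library, and the input library is the same RNA before precipitation. There was 1 IP and 1 input library for each genotype, 4 libraries in all. No difference below therefore has a replicate check, the intervals cover counting error only, and they treat peaks as independent. Library depth is unknown, because the tables used here hold no read totals.

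Marker genes and the deleted gene were examined first. A level in FPKM, a unit that corrects for transcript length and library size, is deposited only for genes with a peak in the table of differential peaks. Of 10 macrophage markers 7 had a level, from 58.4 to 6615 FPKM in KO and from 40.6 to 10533 FPKM in WT. The neutrophil markers S100a8 and S100a9, the 2 of 5 with a level, summed to 137 FPKM in KO and 233 FPKM in WT. Of the other marker lists, the dendritic cell marker Itgax had 46.7 FPKM in KO and 71.9 FPKM in WT, the lymphoid marker Cd79b had 0.734 FPKM in KO and 1.12 FPKM in WT, 3 of 4 dendritic and 4 of 5 lymphoid markers had no level, and 0 of 4 stromal markers had one. None of the listed markers was at 0, and the part of these cells in the results was not tested. Mettl3 itself had 1 peak in the KO list, 0 in the WT list and no differential peak, so no level of it was listed and the deletion was not checked here.

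The lists of called peaks show where the mark was found, and each peak is counted here under the gene the authors assigned it to. The KO list held 295 Slc peaks in 161 genes, among 21031 peaks in 11675 genes, and the WT list held 241 Slc peaks in 142 genes, among 16709 peaks in 9875 genes. The assigned gene was overlapped by 242 of the KO and 205 of the WT Slc peaks (82.0% and 85.1%). The other 53 in KO and 36 in WT lie outside it. Over all peaks whose gene was found in RefSeq, 82.1% in KO and 84.2% in WT overlapped it. Peaks of both lists were found for 125 Slc genes, 36 were listed in KO only and 17 in WT only. The KO list thus held 161 and the WT list 142 of the 178 Slc genes, against 11675 and 9875 of all 13067 genes. Genes listed in a single genotype were not counted over all genes, so these counts are not read as particular to Slc genes. The mean number of peaks for each listed Slc gene was 1.83 in KO and 1.70 in WT, against 1.80 and 1.69 for all genes of the KO and WT lists. Genes with a single peak made up 47.2% (39.3 to 55.2, exact binomial 95% interval) of Slc genes in the KO list, where the share over all genes was 54.1%, and 53.5% (45 to 61.9) in the WT list, where it was 57.6%.

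Slc peaks lay mainly in 3' UTRs. By the authors' annotation 69.2% (63.5 to 74.4) of Slc peaks in the KO list and 61.4% (55 to 67.6) in the WT list were in 3' UTRs, and over all peaks the shares were 64.1% in KO and 59.6% in WT. Among only the Slc peaks that overlap their assigned gene, the 3' UTR held 63.6% of 242 in KO and 56.6% of 205 in WT. The same shares over all peaks within their gene are not given here. The 5' UTR held 17.3% (13.2 to 22.1) of Slc peaks in KO and 20.7% (15.8 to 26.4) in WT, against 10.3% and 13% of all peaks in KO and WT. Other exons held 13.6% (9.87 to 18) of Slc peaks in KO and 17.8% (13.2 to 23.3) in WT, against 25.6% and 27.4% of all peaks in KO and WT. In both lists the share in 5' UTRs was thus above that of all peaks and the share in other exons below it, each with an interval that does not reach the value over all peaks.

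**Figure D1:**
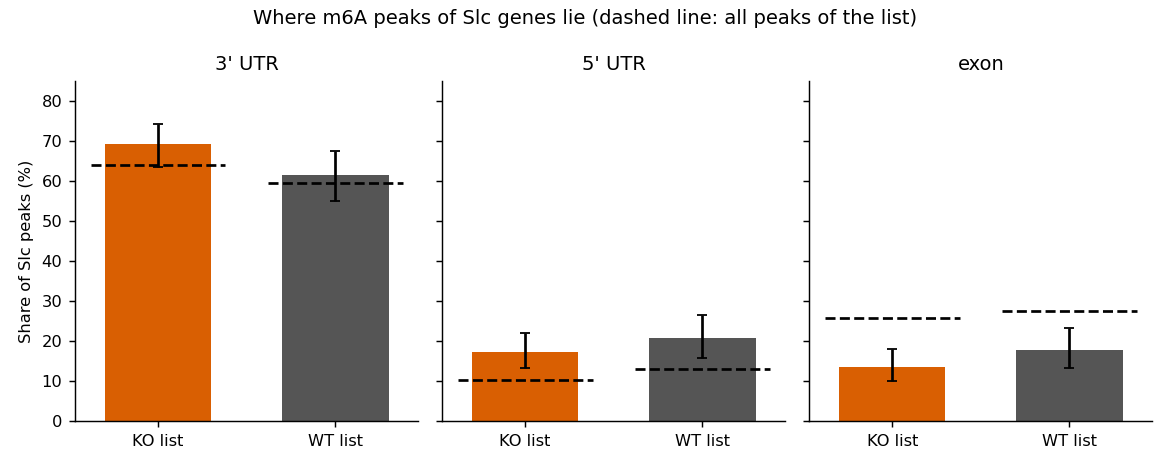
Share of Slc peaks (%) in 3' UTRs, 5' UTRs and other exons, in the KO list (295 peaks) and the WT list (241 peaks). Error bars are exact binomial 95% intervals and dashed lines give the share over all peaks of the same list; in both lists the 5' UTR bars stand above the dashed line and the exon bars below it.

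Enrichment, the authors' fold of IP over input at a peak, was modest for most Slc peaks. Its median was 2.73 (order-statistic 95% interval 2.47 to 3.07) over Slc peaks of the KO list and 3.25 (2.78 to 3.98) over those of the WT list, while all peaks had medians of 3.15 in KO and 3.74 in WT. Slc peaks covered a median of 301 exonic bases in KO and 389 in WT, against 330 and 391 over all peaks of the KO and WT lists. A false discovery rate under 0.05 was listed for 64.7% of Slc peaks in KO and 71.4% in WT, close to the 64.9% and 70.2% of all peaks. These values come from separate calls in each genotype and rank peaks only within a list.

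The most enriched Slc peaks sat on transcripts of carriers with varied roles. In the KO list they belonged to Slc38a9, a lysosomal arginine sensor upstream of mTORC1 (28.3-fold), Slc35d1, a carrier of nucleotide sugars into the endoplasmic reticulum (26-fold), and Slc5a3, the sodium-coupled myo-inositol carrier (24.7-fold). The WT list was led by a peak assigned to Slc35e1 (34.4-fold), but this peak lies in the neighbouring gene Med26. Next in the WT list came Slc20a1, a sodium-phosphate carrier (33.3-fold), and Slc5a3 (30.7-fold), followed by Slc35d1 (30.6-fold). The Slc38a9 peak covered the same bases in both lists (mm10 chromosome 13, 112737968 to 112738749, 3' UTR) and was 9.91-fold enriched in WT. Slc15a3, a peptide and histidine carrier of the endolysosome, and Slc43a2, a carrier of large neutral amino acids, had 6 assigned peaks each in the KO list, the most of any Slc gene, and 5 each in the WT list, as did Slc38a1 and Slc3a1. Within the gene itself lay 4 KO and 2 WT peaks of Slc15a3, 5 KO and 4 WT peaks of Slc43a2, 4 KO and 5 WT peaks of Slc38a1, and 1 KO and 1 WT peak of Slc3a1.

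Peaks were compared between the lists by position, counting a peak as shared when at least 1 exonic base overlapped a peak of the other list. Of Slc peaks in the KO list 61.7% (55.9 to 67.3) overlapped a WT peak, close to the 61.6% of all KO peaks. Of Slc peaks in the WT list 74.7% (68.7 to 80.0) overlapped a KO peak, close to the 73.4% of all WT peaks. When the lists were cut into 3 equal parts by enrichment, the most enriched part gave a lower value for Slc peaks than for all peaks. There 57.9% (46 to 69.1) of 76 Slc peaks in KO and 72.5% (60.4 to 82.5) of 69 in WT were shared, against 68.5% of all such peaks in KO and 79.4% in WT, values that lie within those intervals.

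Genes listed in a single genotype had few peaks each. The 36 Slc genes of the KO list only had 46 peaks with a median enrichment of 3.11, and 18 of them passed a false discovery rate of 0.05. They include Slc7a5, the light chain of a carrier of large neutral amino acids (16.5-fold), Slc29a2, an equilibrative nucleoside carrier (13-fold), Slc25a45, a mitochondrial carrier family member (6.49-fold), the glucose carrier Slc2a1 (1.60-fold) and the mitochondrial citrate carrier Slc25a1 (1.40-fold). The 17 genes of the WT list only had 20 peaks with a median of 6.63, and 10 passed. Among them were Slc16a11 and Slc16a14 of the monocarboxylate carrier family (12.2-fold each), the dicarboxylate carrier Slc13a3 (7.14-fold) and the arginine carrier Slc7a2 (4.42-fold). Listing depends on the gene assigned as well as on the position. Of the 46 peaks 2 overlapped a WT peak that was assigned to another gene, and of the 20 peaks 5 overlapped such a KO peak, among them both peaks of Slc16a9, a monocarboxylate carrier family member.

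The differential table then sets KO against WT at each peak. The authors list a log2 ratio of enrichment, KO over WT, for peaks with p under 0.05, so peaks compared and not listed are unknown. It holds 6050 peaks, and 91 of them, in 70 genes, were assigned to Slc genes. Differential peaks were thus listed for 70 of the 178 Slc genes, against 4731 of all 13067 genes. Of these 91, the authors' deposited table gave 68 as lower in KO, 74.7% (64.5 to 83.3), against 69.6% of all peaks, and 23 were higher, against 30.4%. The median log2 ratio was -0.41 (-0.49 to -0.34) for Slc peaks and -0.40 for all peaks of the authors' deposited table, and 46 of the 91 lay below the median of all peaks and 45 above it. Direction and size for Slc genes were thus near those of the whole table. Lower Slc peaks had a median of -0.49 and higher ones a median of 0.60, against -0.55 and 0.62 over all lower and all higher peaks of the authors' deposited table. Differences of at least 1 in absolute log2 ratio were found for 8 Slc peaks, 8.79%, against 16.3% of all peaks; 3 were lower and 5 higher. A false discovery rate under 0.05 was given by the authors' deposited table for 67 Slc peaks, 73.6% against 79.6% of all peaks, and 54 of the 67 were lower, 59.3% of the 91 against 57% of all listed peaks.

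By gene, 49 Slc genes had lower peaks only, 14 had higher peaks only, and 7 had both. The same was counted over all genes only at a mean input of at least 1 FPKM. There 45 of 61 Slc genes had lower peaks only, 9 higher only and 7 both, against 2349, 1046 and 284 of 3679 genes. In 3' UTRs 47 of 68 Slc peaks were lower (69.1%, against 63.2% of all), in 5' UTRs 15 of 16 (93.8%, against 88.7%) and in other exons 6 of 7 (85.7%, against 85.2%). The 5' UTR exception was Slc4a2, a chloride-bicarbonate exchanger, at 0.60 in the authors' deposited table (FDR 0.0617). Assignment of peaks to genes affects these counts. Of the 91 peaks 15 do not overlap the gene they were assigned to, and of these 7 were lower and 8 higher (46.7% lower, against 57.9% of all peaks outside their gene), whereas 61 of the 76 peaks within their Slc gene were lower (80.3%, against 71.9% of all peaks within their gene).

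**Figure D2:**
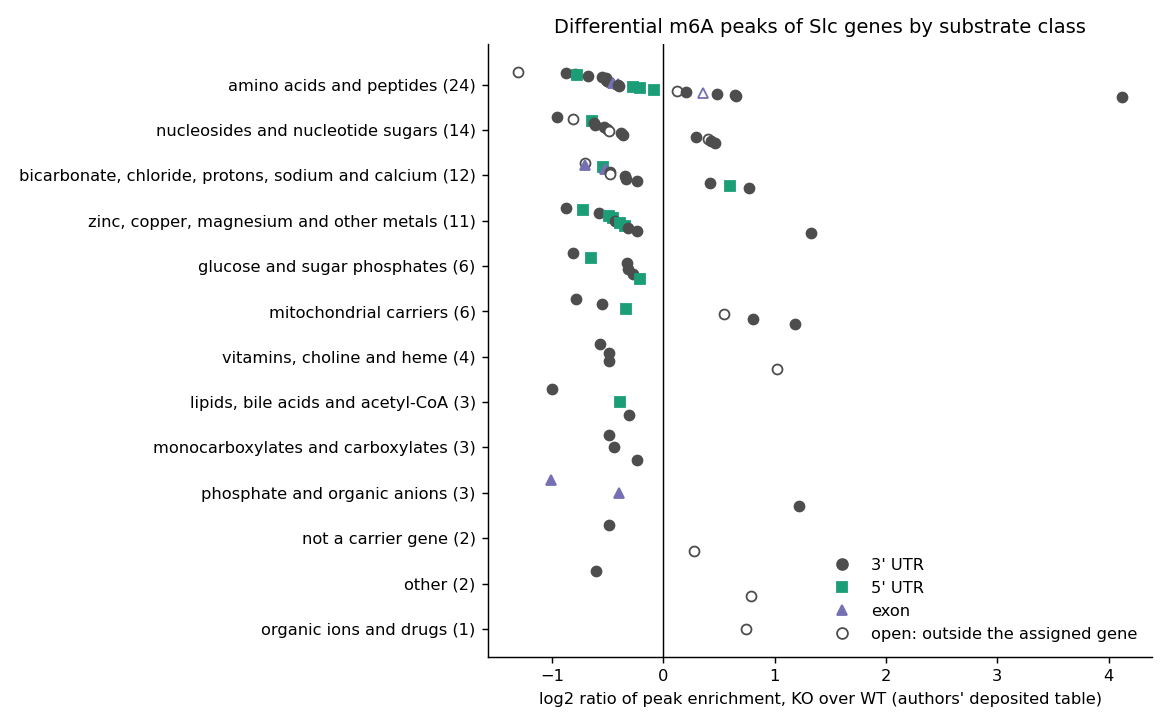
Log2 ratio of peak enrichment, KO over WT, for each of the 91 differential Slc peaks (points) by substrate class, with the number of peaks in brackets and the symbol giving the annotated region. Open symbols lie outside the assigned gene; 68 points are left of 0, and the metal and sugar classes have 10 of 11 and 6 of 6 points there.

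Amino acid and peptide carriers formed the class with the most differential peaks, 17 lower and 7 higher, in 16 genes, and 13 of the 24 lay below the median of the whole table. Within their genes lay 14 of the lower and 5 of the higher peaks. Slc6a12, a betaine and GABA carrier, had an enrichment of 5.63 in the KO list and 14.6 in the WT list at its 3' UTR peak (mm10 chromosome 6, 121363238 to 121365775). The authors' deposited table gave it a log2 ratio of -0.87 (FDR 9.1e-05). At the 5' UTR peak of Slc1a5, a glutamine and neutral amino acid carrier, enrichment was 3.05 in the KO list and 3.84 in the WT list, with a ratio of -0.78 in the authors' deposited table. Slc36a1, which exports small amino acids with protons, had a 3' UTR peak at -0.68 in the authors' deposited table, and Slc38a7, a lysosomal glutamine exporter, stood at -0.52 in its 3' UTR and -0.45 in an exon. Slc15a4, the endolysosomal histidine and peptide carrier needed for some Toll-like receptor responses, stood at -0.49 in the authors' deposited table (FDR 3.2e-26), with 7.86-fold enrichment in the KO list and 11-fold in the WT list. Its relative Slc15a3 had 5' UTR peaks at -0.28 (FDR 5.0e-32) and -0.085, and peaks near its 3' end at 0.20 and 0.35, all from the authors' deposited table. The peak at 0.35 lies outside the RefSeq extent of Slc15a3, in the gene Tmem132a, and the peak at 0.20 (FDR 0.0977) also overlaps Tmem132a, with 23 of its 180 bases within Slc15a3.

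On the higher side of this class stood the heavy chain of the CD98 heterodimer and carriers of large neutral amino acids and taurine. Slc3a2, the CD98 heavy chain, had a short 3' UTR peak with 2.06-fold enrichment in the KO list and 1.2-fold in the WT list, and a ratio of 0.64 in the authors' deposited table (FDR 1.1e-06). Slc7a5, whose product pairs with that heavy chain, had 16.5-fold enrichment in the KO list and no peak in the WT list. Its ratio of 4.12 was the highest of any Slc peak in the authors' deposited table, with FDR 0.0676, and its transcript was scarce, at 0.932 FPKM in KO and 0.605 FPKM in WT. Slc6a6, the taurine carrier, had 1.88-fold enrichment in the KO list and 1.29-fold in the WT list at a 3' UTR peak with a ratio of 0.49 in the authors' deposited table (FDR 1.6e-05). The lowest ratio of the class, -1.30 for Slc3a1 in the authors' deposited table, belongs to a peak in the neighbouring gene Ppm1b.

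Carriers of zinc, copper and other metals had 10 lower peaks and 1 higher, all within their genes, and 6 of the 11 lay below the median of the whole table. Slc30a1, the zinc exporter of the plasma membrane, had a single 11.8-fold peak from its 5' UTR into its 3' UTR in the WT list, and separate peaks of 1.49-fold and 6.25-fold in the KO list over the corresponding differential peaks. Both differential peaks were lower in the authors' deposited table, at -0.49 in the 5' UTR (mm10 chromosome 1, 191906766 to 191907007) and -0.58 in the 3' UTR (191907126 to 191910221, FDR 1.6e-32). Slc30a7, which loads zinc into the Golgi, stood at -0.88 in the authors' deposited table, and Slc30a5, another Golgi zinc carrier, at -0.43. Among zinc importers Slc39a10 had 4.24-fold enrichment in the KO list and 14.3-fold in the WT list at its 5' UTR peak, with a ratio of -0.72 in the authors' deposited table (FDR 4.9e-10). Slc39a7, which releases zinc from the endoplasmic reticulum, had overlapping 5' UTR peaks, for which the authors' deposited table gave -0.35 and -0.45. The exception was Slc39a6, a plasma membrane zinc importer, with a lower 5' UTR peak (-0.39) and a 3' UTR peak that was 5.51-fold enriched in the KO list, absent from the WT list and at 1.33 in the authors' deposited table (FDR 0.0162).

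Because m6A is deposited at adenosines that often follow GG and precede C, the transcript starts of Slc genes were read for the letters GGAC. No genome sequence was used here, so this covers the first 50 bases after each RefSeq start (GRCm38.p6) and not whole peaks. Of the 178 genes 128 had a start window, 175 windows in all, and 24.6% of those windows held GGAC on the transcript strand, against 18.9% of the 32851 windows of all genes. On either strand the shares were 46.9% for Slc genes and 33.3% for all. The windows of all genes come from 27025 RefSeq genes, with or without a peak, whereas each Slc gene here has a listed peak. Shares among only the genes with a peak were not computed, so the difference is not read as particular to Slc genes. The letters within called peaks are shown for Slc30a1, whose start lies in a lower differential peak, for Slc25a28, a mitochondrial iron carrier with a start peak in both lists, for Slc27a1 and Slc37a3, with one in the KO list, and for Slc35e4, with one in the WT list. Capitals mark GGAC, each sequence is on the transcript strand, 5' to 3', and the match is a description, not a mapped site.
Slc30a1, chromosome 1, 191906786 to 191906809, plus strand: cgaagacggcGGACgcctccgggc
Slc25a28, chromosome 19, 43674832 to 43674855, minus strand: cgcctgaggcGGACgcaacggggc
Slc27a1, chromosome 8, 71568899 to 71568920, plus strand: gaagcgcccaGGACtctgcaaa
Slc37a3, chromosome 6, 39377395 to 39377418, minus strand: agagggaggaGGACaccagacacc
Slc35e4, chromosome 11, 3914646 to 3914664, minus strand: atccaGGACttgtttgaca

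Nucleoside and nucleotide sugar carriers had 10 lower and 4 higher differential peaks, and 8 of the 14 lay below the median of the whole table. Within their genes lay 8 of the lower and 3 of the higher peaks. A lower peak assigned to Slc35c2 (-0.49) lies in Elmo2, and a higher one assigned to Slc35e4 (0.40) in Tcn2. Slc35b4, which brings UDP sugars into the secretory pathway, had 4.75-fold enrichment in the KO list and 8.25-fold in the WT list and stood at -0.62 in the authors' deposited table (FDR 6.3e-25). Slc35e3, a family member with no well-defined substrate, was at -0.95 in the authors' deposited table, with 1.95-fold enrichment in the KO list and 4.08-fold in the WT list. Its relative Slc35e4 had 4.53-fold enrichment in the KO list and 12.2-fold in the WT list at its 5' UTR peak, where the authors' deposited table gave -0.64. The start sequence of Slc35e4 printed above lies in that WT peak. The 3' UTR peak of Slc35e4 was 5.46-fold enriched in the KO list and 2.68-fold in the WT list and stood at 0.43 in the authors' deposited table. For Slc29a1, an equilibrative nucleoside carrier, the ratio in the authors' deposited table was 0.30. The sulfate donor carrier Slc35b2 had a higher peak of its own at 0.46, whereas the peak at -0.81 assigned to it in the authors' deposited table lies in Nfkbie.

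Carriers of sugars, inositol and sugar phosphates had 6 lower peaks and 0 higher, although relative to the median of the whole table the split was 2 below and 4 above. Slc2a6, a glucose carrier family member found on lysosomes, had 1.65-fold enrichment in the KO list and 2.57-fold in the WT list, and a ratio of -0.81 in the authors' deposited table (FDR 0.0776). The strongly enriched 3' UTR peak of Slc5a3, which also overlaps Mrps6, stood at -0.33 in the authors' deposited table. Slc45a4, a proton-coupled family member, had peaks at -0.65, -0.31 and -0.21, and Slc37a3, a lysosomal sugar phosphate family member, one at -0.27, in the authors' deposited table. Lactate and monocarboxylate carriers had 3 lower peaks and 0 higher, 2 of them below the table's median, at -0.49 in Slc16a6, -0.44 in Slc16a7 and -0.24 in the lactate exporter Slc16a3, in the authors' deposited table. The class of lipid, bile acid and acetyl-CoA carriers likewise had 3 lower and 0 higher, 1 of them below the table's median. This class was set by family number, not by the substrate of each member. The authors' deposited table gave -1 in Slc10a7, -0.39 in Slc27a4 and -0.31 in Slc27a1, and the first and the second had FDR above 0.05.

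Ion exchangers and cotransporters had 9 lower peaks and 3 higher, with 6 below and 6 above the median of the whole table. Within their genes lay 7 of the lower and all 3 higher peaks. The lower peak assigned to Slc12a8 lies in Zfp148, and that assigned to Slc26a11 overlaps Card14 and Sgsh. Slc26a2, a sulfate carrier, had exon and 3' UTR peaks for which the authors' deposited table gave -0.71 and -0.24. An exon peak of Slc8a1, the sodium-calcium exchanger of the plasma membrane, was at -0.52 by the authors' deposited table. The higher peaks were those of Slc9a9, an endosomal sodium-proton exchanger (0.77), Slc4a2, named above, and Slc8b1, the mitochondrial sodium-calcium exchanger (0.42), in the authors' deposited table, and their FDR was above 0.05 in each case. Phosphate carriers had 2 lower peaks and 1 higher, with 1 below and 2 above that median. The exon peak of Slc20a1, which lies within that gene but is annotated by the authors to an exon of a different Ensembl gene, was 15.3-fold enriched in the KO list and 33.3-fold in the WT list and stood at -0.40 in the authors' deposited table, whereas a 3' UTR peak of Slc20a1, 2.49-fold enriched in the KO list and absent from the WT list, stood at 1.22 (FDR 0.0617). Slc20a2, the other sodium-phosphate carrier of the family, had an exon peak at -1.01 in the authors' deposited table (mm10 chromosome 8, 22560963 to 22561203, FDR 0.104).

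Mitochondrial carriers were evenly divided, with 3 lower and 3 higher, and 2 below and 4 above the table's median. The ornithine carrier Slc25a15 stood at -0.78, the outer membrane protein Slc25a46 at -0.55 and the NAD+ carrier Slc25a51 at -0.34 in the authors' deposited table. Slc25a45 stood at 1.18 and Slc25a4, the ADP/ATP carrier, at 0.81 in the authors' deposited table, and both peaks were in the KO list and not in the WT list. The third higher peak, assigned to Slc25a34, lies in Plekhm2. Vitamin, choline and heme carriers had 3 lower peaks, each also below the table's median, in the riboflavin carrier Slc52a2 (-0.57), the choline carrier family member Slc44a2 (-0.49) and the lysosomal heme exporter Slc48a1 (-0.49), in the authors' deposited table. The Slc48a1 peak also overlaps Hdac7 and was 1.78-fold enriched in the WT list and absent from the KO list. Their 1 higher peak, assigned to Slc44a4, lies in Ehmt2. Of the remaining classes, the iron carrier Slc11a2 had a peak at -0.61 (FDR 0.101) in the authors' deposited table, and the higher peaks assigned to Slc51a (0.79) and Slc39a1-ps (0.28) lie in Pcyt1a and Tbc1d13.

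Among 16 carriers with a known role in macrophages 14 were in the peak lists, and Slc16a1 and Slc46a2 were not. Differential peaks were listed for 7 of them, namely Slc3a2, Slc7a5, Slc15a3, Slc15a4, Slc16a3, Slc36a1 and Slc48a1. Of these peaks 6 were lower and 4 higher (60% lower, against 69.6% of all peaks). Over all 13067 genes named in the lists 4731 had a differential peak. That total holds only genes with a peak, whereas the 16 carriers were not limited to such genes. The lysosomal nucleoside carrier Slc29a3, the sugar phosphate carrier Slc37a2 and Slc38a9 had peaks in both lists but none in the authors' deposited table of differences. Carriers and partner chains without an Slc symbol were counted beside the members. Of 33 such genes 22 were in the KO list and 18 in the WT list, and 8 had differential peaks. The counts over all 13067 genes were 11675, 9875 and 4731, and that total again holds only genes with a peak. Of the 12 differential peaks of the 33 genes 7 were lower and 5 higher, where 69.6% of all peaks were lower. The phosphate exporter Xpr1 had ratios of -0.85 and -0.28 in the authors' deposited table. Lower ratios were also given for 3 peaks of the heme exporter Flvcr1, from -0.26 to -0.25 in the authors' deposited table. The mitochondrial uncoupling protein gene Ucp2 had a peak at 0.20 and the lysosomal membrane protein gene Cln3 one at 0.40 in the authors' deposited table.

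Peaks of the 2 directions lay in different places along the transcript. This split was chosen after the values were seen and is a description. Distance was taken from each differential peak to the RefSeq 3' end of its gene, in genomic bases, for the 76 peaks within their Slc gene. Higher peaks had a median distance of 0 bases, and lower peaks one of 2849 bases (order-statistic 95% interval 2095 to 4776). Of the 15 higher peaks 12 ended within 500 bases of the 3' end (80.0%, exact interval 51.9 to 95.7), and of the 61 lower peaks 10 did (16.4%, 8.15 to 28.1). Over all genes the shares were 69.3% of higher and 19.98% of lower peaks, so Slc genes followed the table. Read the other way, 10 of 22 Slc peaks near the 3' end were lower (45.5%, against 42.4% of all such peaks), and 51 of 54 farther from it were lower (94.4%, against 87.0%). Relative to the median of the whole table, 7 of those 22 peaks and 32 of those 54 lay below it. The higher peaks that were not within 500 bases of the 3' end belonged to Slc4a2, Slc3a2 and Slc7a5.

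**Figure D3:**
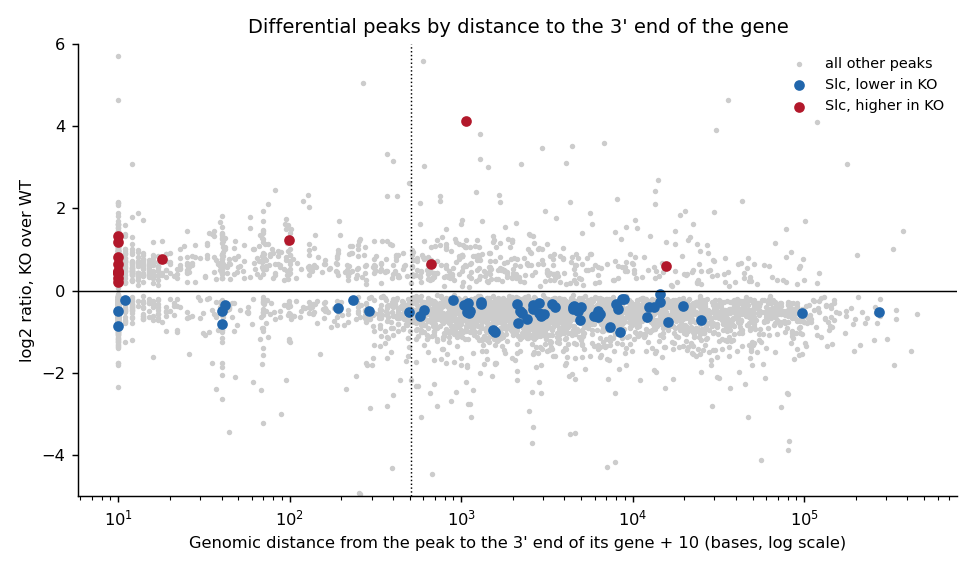
Log2 ratio of enrichment, KO over WT (y axis, shown from -5 to 6), against genomic distance of the peak from the 3' end of its gene (x axis, log scale, 10 bases added, peaks past the end set to 0) for differential peaks within their gene. Slc peaks are blue when lower in KO and red when higher, all other peaks are grey, and the dotted line marks 500 bases; 12 of 15 red points and 10 of 61 blue points lie left of it.

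Higher peaks were also short. Higher Slc peaks covered a median of 180 exonic bases (150 to 240) and lower ones 731.5 (540 to 930), against 209 and 804 over all higher and all lower peaks. Of Slc peaks within their gene that covered up to 250 exonic bases 8 of 20 were lower (40%, against 28.6% of all such peaks), and of longer ones 53 of 56 (94.6%, against 88.8%). In the 6 Slc genes with peaks of both directions inside the gene, the higher peak lay nearer the 3' end in 6 of 6, and over all genes in 179 of 221 (81.0%), with the reservation that the higher peak of Slc15a3 lies mostly past the end of that gene. Those 6 genes were Slc15a3, Slc20a1, Slc35e4, Slc39a6, Slc43a2 and Slc9a9. In Slc43a2, for example, the peak 4496 bases from the 3' end had 1.58-fold enrichment in the KO list and 2.43-fold in the WT list, with a ratio of -0.41 in the authors' deposited table (FDR 4.0e-17). The peak at the end itself had 2.77-fold enrichment in the KO list and 1.51-fold in the WT list, with a ratio of 0.65 in the authors' deposited table (FDR 3.2e-15). Of all 68 lower Slc peaks 64 overlapped a peak of the KO list (94.1%, against 92.7% of all lower peaks). Of the 23 higher Slc peaks 15 overlapped one of the WT peaks (65.2%, against 64.7% of all higher peaks).

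**Figure D4:**
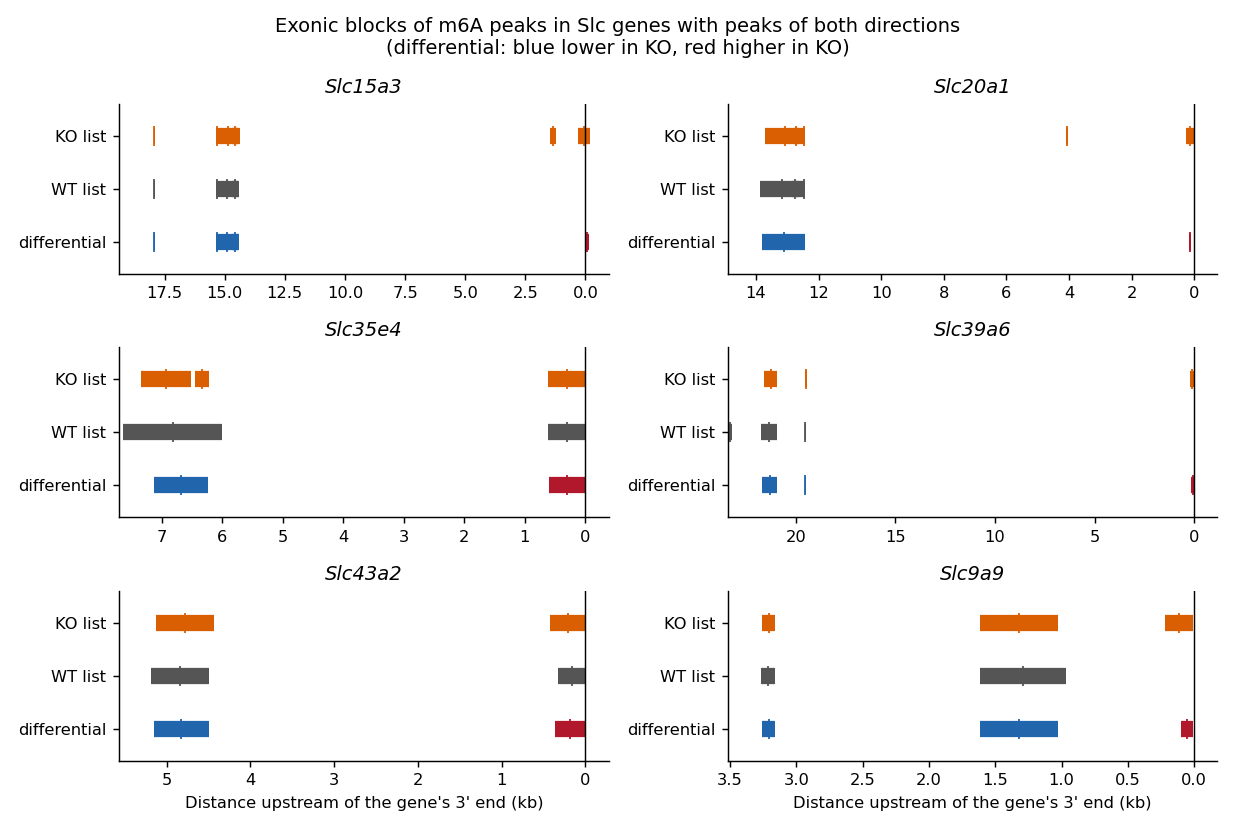
Exonic blocks of peaks within 6 Slc genes that have differential peaks of both directions, by distance upstream of the gene's 3' end (kb), with the KO list, the WT list and the differential table as rows. Differential peaks lower in KO are blue and higher ones red, and in 6 of 6 genes the red peak is the one nearest the 3' end.

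Direction also went with transcript level. In Slc transcripts with a mean input of 1 to 10 FPKM 32 of 37 differential peaks were lower (86.5%, against 80.7% of all peaks in that range), with 10 to 20 FPKM 18 of 23 (78.3%, against 70.7%), and with at least 20 FPKM 14 of 22 (63.6%, against 45.4%). Below 1 FPKM, where 5 Slc peaks lay, 1 was lower (20%, against 67.6% of all peaks in that range), and 3 of the 5 lie outside the gene whose level places them there, those assigned to Slc25a34, Slc44a4 and Slc51a. The ranges from 1 FPKM up also hold peaks that lie outside the gene whose level places them. These are lower peaks assigned to Slc26a11, Slc35b2, Slc35c2 and Slc43a2, and higher peaks assigned to Slc7a6, Slc15a3, Slc35e4 and Slc39a1-ps. Whether level, peak length and distance from the 3' end go with direction independently of each other was not tested.

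Transcript levels of Slc genes in the inputs differed little between the genotypes. Levels were listed for 66 Slc genes, and in 61 the mean of both inputs was at least 1 FPKM. These levels are from bulk RNA, in which fewer cells of a type and less RNA per cell cannot be told apart. The median difference of log2(FPKM + 1), KO minus WT, was 0.08 (order-statistic 95% interval 0.03 to 0.13) over the 61 genes and 0.07 over all 3679 genes at that level. Of the 61 genes 42 were higher in KO, 68.9% (55.7 to 80.1), against 69% of all genes. A difference of at least 1.5-fold on this scale, which understates differences of low genes, was found for 1 gene higher in KO (1.64%, against 1.22% of all genes) and for 0 genes lower (0%, against 0.788%). That gene was Slc2a6, with 7.10 FPKM in KO and 4.07 FPKM in WT, a log2 difference of 0.68. In the authors' deposited table of input differences its p was 0.268, the smallest of the 66 genes, and the adjusted p was 1 for each of them. Across the whole of the authors' deposited table, none of 4403 genes (0) had an adjusted p under 0.05.

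Among the 66 Slc genes with a listed level, the highest levels were those of carriers of taurine, heme and amino acids. Slc genes without a differential peak have no level and could not be ranked. Slc6a6 had 154 FPKM in KO and 154 FPKM in WT, and Slc48a1 had 99.1 FPKM in KO and 105 FPKM in WT. Next came Slc15a3, with 88.3 FPKM in KO and 99.2 FPKM in WT, and Slc3a2, with 73.0 FPKM in KO and 67.0 FPKM in WT. Slc43a2 had 58.5 FPKM in KO and 49.7 FPKM in WT, and Slc25a4 had 42.3 FPKM in KO and 39.5 FPKM in WT. The first 5 of these genes were the highest of the listed Slc genes in both inputs, in the same order. At least 1 higher peak was assigned to 4 of the 5, all but Slc48a1. Those of Slc15a3 lie outside that gene or mostly past its end. Among all differential peaks of genes with at least 20 FPKM, 658 of 1206 were higher. After Slc2a6 the largest differences toward KO were those of Slc38a7 (19.9 FPKM in KO and 15.6 FPKM in WT), Slc16a6 (6.4 FPKM in KO and 5.15 FPKM in WT) and Slc35e4 (9.26 FPKM in KO and 7.56 FPKM in WT). At a mean of 5 FPKM or more, the largest differences toward WT were those of Slc37a3 (5.35 FPKM in KO and 6.29 FPKM in WT), the creatine carrier Slc6a8 (37 FPKM in KO and 42.2 FPKM in WT) and Slc15a3. With 1 input for each genotype none of these differences can be set against replicate error.

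**Figure D5:**
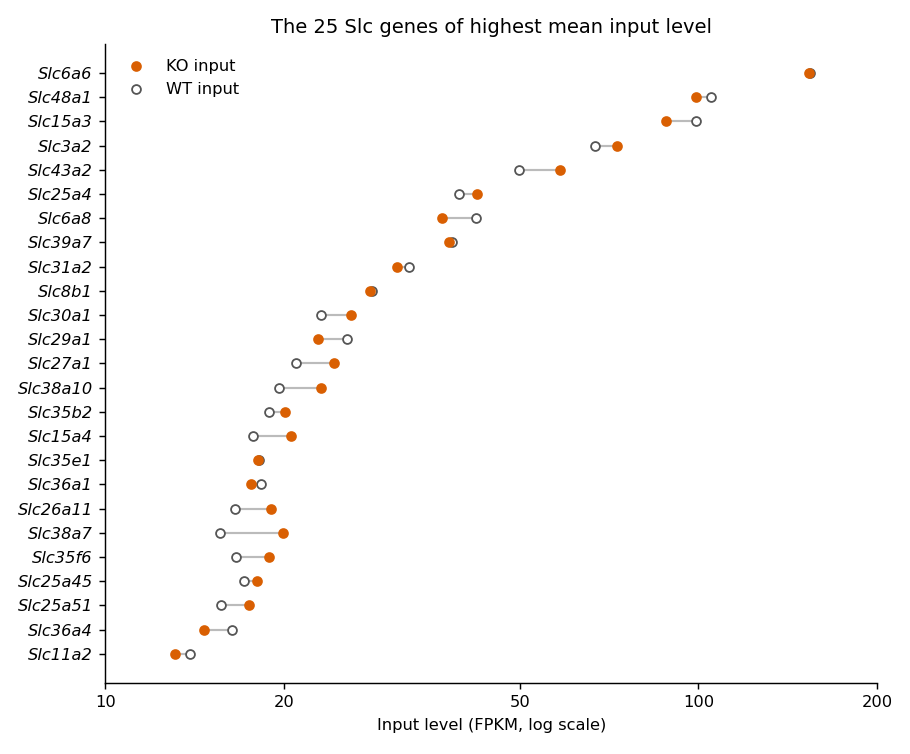
Input level (FPKM, log scale) of the 25 Slc genes with the highest mean level among those with a listed level. Filled points are KO, open points are WT and a line joins the pair. The pairs lie close together along the whole range, from Slc6a6 at 154 FPKM in both to Slc11a2 at 13.1 FPKM in KO and 13.9 FPKM in WT.

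Peak direction and input level were set beside each other by gene. Slc genes with lower peaks only and at least 1 FPKM on average numbered 45, and 31 of them had a higher level in KO, with a median log2 difference of 0.08. Slc genes with higher peaks only numbered 9, of which 5 had a higher level in KO, with a median of 0.00. The corresponding medians over all genes were 0.10 for lower peaks only and 0.00 for higher peaks only. Peak ratios are relative to the input of the same gene, and whether the level difference follows the peak difference was not tested.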

How the data were processed

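m6A-seq was done on KO and WT macrophages, 1 IP and 1 input library for each, and the titles gave the groups. Per the submitters' processing notes the build was mm10 and the tools were edgeR, StringTie, ChIPseeker, HOMER, HISAT2 and fastp, without versions or steps. The program that called peaks is not named in these notes. Per the file headers, the deposited peak lists give each peak's fold enrichment (the ratio of IP to input) and its p-value, and peaks with p up to 0.05 are listed. Scores on a log10 scale for p and false discovery rate are deposited too, and false discovery rates were read from them. The deposited table of differences gives a log2 ratio of KO over WT with its p-value, and the authors' FPKM of each input with a p-value and an adjusted p, which has no level for 370 of 6050 peaks. Nothing was pooled, and 0 columns went unused for lack of a sample.

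Starts are printed as listed and count from 0, since block lengths sum to end minus start. Overlap was counted on exonic blocks, at least 1 base, strand ignored because the lists give only the strand of the assigned gene. All 178 symbols were found in the RefSeq gene table (GRCm38.p6), whose extents showed which peaks lie within their assigned gene. Distances to the 3' end use those extents. Start sequences are RefSeq's. GGAC was searched alone, with up to 10 bases printed on either side and 24 at most.

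With 1 library per group no test was run. Shares have exact (Clopper-Pearson) 95% intervals and medians order-statistic intervals, and most stand beside the same value over all features. Input differences are log2(FPKM + 1), for genes whose mean reached 1 FPKM. Counting was tested on simulated data. Named genes are those of the 10 lowest and highest ratios in genes whose FPKM reached 1 in both inputs, the 10 largest level differences, the 10 highest levels, the most and strongest peaks, the largest ratio of each substrate class and 16 macrophage carriers; others, the sequences and the split by distance from the 3' end were chosen after their values were seen. Results for a few members are left out here. The members and lists were chosen with earlier results of these data known. Alternatives were stricter thresholds on fold, p, false discovery rate, ratio and level, an overlap of 50%, peaks within the assigned gene, another pseudocount, and ratios or level differences centred on their median. The software was Python 3.11.15 with matplotlib 3.10.9, scipy 1.17.1, pandas 2.3.3 and numpy 2.4.6.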

Additional observations from a re-analysis of the deposited data

How the results depend on the processing

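Of 56 alternative values 33 stayed within the range set for an unchanged result, 22 moved and 1 changed sign. At a peak p of at most 1e-10 the KO list held 75 Slc peaks (85.3% shared, 74.7% in 3' UTRs) and the WT list 79, and at 4-fold enrichment the KO list held 98 and the WT list 104 (63.5% shared). With 50% overlap 44.1% of KO and 53.9% of WT Slc peaks were shared. With an absolute log2 ratio of at least 1 only, 3 differential Slc peaks were lower and 5 higher (37.5% lower), and the median changed sign to 1.10, since few peaks remain. At p under 0.001, 40 were lower and 8 higher (83.3% lower, median -0.49). At a false discovery rate under 0.05, 13 were higher, and 15 among peaks within their gene. Centred on the table's median, 45 were higher, 50.5% were lower and the median was -0.003. The median input difference centred on that of all genes was 0.00699.

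No paired analysis was possible because each group has 1 library. For the same reason no replicate was left out. The files hold no read totals, so neither depth nor the detection limit of a peak is known.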

Other observations

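In 3 Slc genes a single peak of the WT list held 2 differential peaks, and these pairs therefore share a WT signal. They were the zinc exporter gene Slc30a1, Slc35f6 and Slc45a4. In Slc35f6, a member of the nucleotide sugar carrier family, the WT peak was 3.98-fold enriched, and in the authors' deposited table the differential peaks over it stood at -0.61 and -0.53 (FDR 4.8e-04 and 1.3e-25). The one at -0.61 overlapped no peak of the KO list, and the one at -0.53 overlapped a KO peak of 2.65-fold enrichment. Its transcript had 18.9 FPKM in KO and 16.6 FPKM in WT.

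Of the 15 differential peaks outside their assigned Slc gene, 7 were assigned to genes with no listed level or a level under 1 FPKM in both inputs, so for these the FPKM beside the peak is not that of the transcript it lies in.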
